A study of Bos taurus with 5 samples.

Results

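The levels of *ACTB* and *GAPDH* were examined in 5 single bovine blastocysts. Both genes were chosen by name, as the usual reference genes of expression studies, and are listed in the deposited table as ENSBTAG00000026199 (*ACTB*) and ENSBTAG00000014731 (*GAPDH*), 2 of 24616 annotated features. The table holds Ensembl IDs without gene names, so these names come with the choice of the genes and those of other features are not given. Each embryo came from an oocyte of Holstein cattle that was matured for 24 hours, fertilized in vitro with semen of a Holstein bull and cultured for 7 days in KSOM medium with BSA, to which the study's methods add fetal bovine serum after the first days. The zona pellucida was removed with pronase, and RNA of each embryo was extracted, amplified with the Nugen Ovation kit and sequenced as a separate library. All 5 embryos form 1 group with no treatment or control, and each embryo is a biological replicate. The labels give no sex. The study took blastocyst 3 as probably female and the others as male, from expression in these same embryos, and since no other female embryo shows the spread, the sexes were not compared here. Markers of the blastocyst or of cumulus cells were not looked up, because no list that pairs Ensembl IDs with gene names was at hand. The tissue label was thus not checked against them.

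*ACTB* encodes beta-actin, which polymerizes into the actin filaments of the cytoskeleton in every nucleated cell. In the blastocyst, actin filaments lie beneath the cell membrane and at the junctions of the trophectoderm, the outer epithelium that encloses the fluid-filled cavity. *GAPDH* encodes glyceraldehyde-3-phosphate dehydrogenase, the glycolytic enzyme that oxidizes glyceraldehyde-3-phosphate and reduces NAD+. Transcripts of such genes are often used to correct for the amount of RNA in a sample, a use that presumes a level that differs little between samples.

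*ACTB* had the highest level of all nuclear features, and *GAPDH* was far below it. Values are RPKM, the reads of a gene divided by the length of its exon model and by the mapped reads of the library. Since RPKM is per length, the levels of both genes were set side by side. It does not correct for transcripts that are amplified unequally, and this was not tested. *ACTB* had 3368, 4647, 3197, 4044 and 3921 RPKM in blastocysts 1 to 5, a mean of 3835 ± 578 RPKM (SD, n = 5). Blastocyst 2 was the highest and blastocyst 3 the lowest, with a 1.45-fold difference between them. *GAPDH* had 59.8, 55.0, 77.4, 98.2 and 104.7 RPKM in the same order, a mean of 79.0 ± 22.2 RPKM (SD, n = 5). Blastocyst 5 was the highest and blastocyst 2, the embryo with the most *ACTB*, the lowest, with a 1.90-fold difference between them. The lowest *ACTB* value lay above the highest *GAPDH* value, so the genes did not overlap in level in these embryos.

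**Figure D1:**
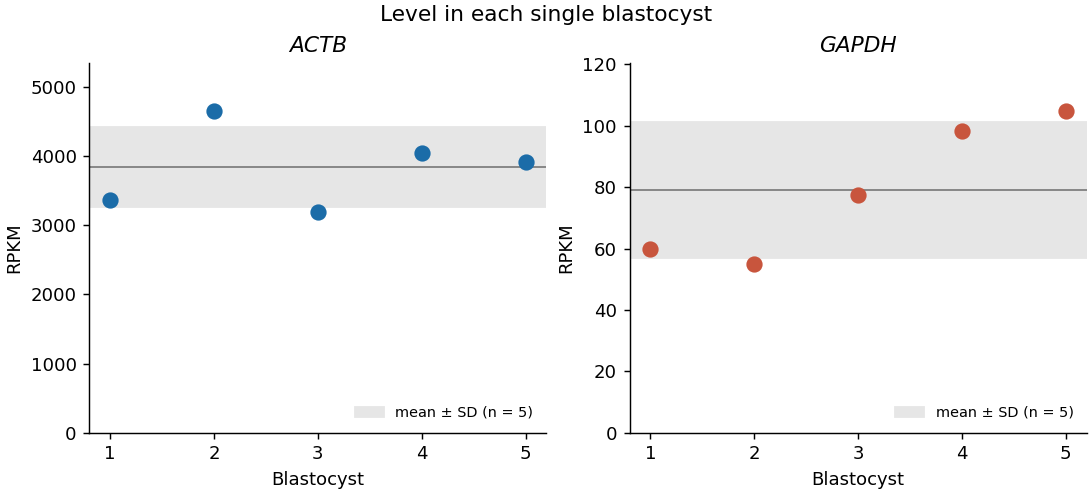
RPKM of *ACTB* (left) and *GAPDH* (right) in each blastocyst, on axes that start at 0 and differ in scale, with the mean as a line and the SD (n = 5) as a grey band. *ACTB* runs from 3197 to 4647 RPKM and is highest in blastocyst 2, in which *GAPDH*, from 55.0 to 104.7 RPKM, is lowest.

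For the ranks, the 37 rows of the table that hold the mitochondrial DNA genes were left out, which kept 24579 nuclear features. *ACTB* ranked 1 by mean RPKM and also ranked 1 in each of the 5 embryos. With the mitochondrial rows kept it ranked 10. Its share of the summed nuclear RPKM was 1.60%, 2.13%, 1.56%, 2.00% and 1.93% in blastocysts 1 to 5. The feature at rank 2, ENSBTAG00000015316, had a mean of 2949 ± 568 RPKM. *ACTB* exceeded it in 5 of 5 embryos, by 886 ± 759 RPKM on average (SD of the difference, n = 5), but by only 16.7 RPKM in blastocyst 5, in which the feature at rank 2 had 3904 RPKM. The difference between ranks 1 and 2 was thus little larger than its own spread between embryos.

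*GAPDH* ranked 463 among nuclear features by mean RPKM, within the highest 4.89% of the 9476 nuclear features that averaged 0.4 RPKM or more, the level that the study took as expressed. Its ranks in blastocysts 1 to 5 were 648, 701, 474, 358 and 328, with the transcript of the enzyme lower in the order in blastocysts 1 and 2 than in the others. Its neighbours in rank had nearly the same mean, with 79.1 ± 12.3 RPKM for ENSBTAG00000014874 above it and 78.7 ± 16.8 RPKM for ENSBTAG00000008570 below it. The mean differences from *GAPDH*, -0.07 ± 22.1 and 0.35 ± 36.0 RPKM (gene minus neighbour, SD, n = 5), were far smaller than their spread, so the order of these 3 features is not fixed by the data. *GAPDH* held 0.0383% ± 0.0117 (SD, n = 5) of the summed nuclear RPKM.

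The depth behind the values could be recovered, because reads and exon lengths are whole numbers and few combinations of them meet a set of RPKM values to the last decimal. The totals by which RPKM was scaled came out as 25935031, 28019343, 29781827, 30145357 and 30715775 reads for blastocysts 1 to 5. For *ACTB* the values were met by an exon model of 1829 bases with 159758, 238144, 174148, 222965 and 220286 reads in blastocysts 1 to 5. For *GAPDH* they were met by 1056 bases with 1639, 1628, 2434, 3126 and 3396 reads. All of these products lay within 0.0234 reads of a whole number. They are the shortest lengths that meet the values, and a multiple of a length with the same multiple of its reads would meet them too. *ACTB* took between 0.585% and 0.850% of these totals, which are the mapped reads that scale RPKM and not all reads sequenced, and *GAPDH* at most 0.0111%.

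Counting error was small beside the differences between embryos. For *GAPDH* the exact Poisson 95% interval was 52.4 to 57.8 RPKM in blastocyst 2, the lowest embryo, and 101.2 to 108.3 RPKM in blastocyst 5, the highest. The counting error was between 1.72% and 2.48% of the value in each embryo for *GAPDH*, and at most 0.250% for *ACTB*. The coefficient of variation (CV, SD over mean) between embryos was 28.1% for *GAPDH* and 15.1% for *ACTB*. Reads of amplified cDNA without molecular identifiers are not independent molecules, so these intervals cover counting error only. The 31 bases left of each read after trimming can match more than 1 place, such as other actin genes or processed copies of either gene. The study tallied all reads mapped to annotated genes and uniquely mapped reads separately. How a read with several matches was assigned to a single gene is not given in the sources used here, and the level of both genes is uncertain to that extent.

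To place the spread, each gene was set beside the 100 nuclear features nearest to it in mean RPKM. The features near *GAPDH* had means of 71.9 to 86.4 RPKM, with a median CV of 19.7% and quartiles of 14.5% and 26.6%. The CV of *GAPDH*, 28.1%, lay above the upper quartile, and 83 of the 100 features had a lower one. Since *ACTB* is the highest nuclear feature, all 100 features nearest to it were lower, with means from 308 to 2949 RPKM, and are only in part of similar level. They had a median CV of 18.0% and quartiles of 12.6% and 24.1%. The CV of *ACTB*, 15.1%, was between the lower quartile and the median, and 37 of the 100 had a lower one. Among all 9476 nuclear features that averaged 0.4 RPKM or more, which include many low ones, the median CV was 35.3%, and 9.50% of features had a lower CV than *ACTB* and 36.1% a lower CV than *GAPDH*. These places describe the genes among other features and are not tests.

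**Figure D2:**
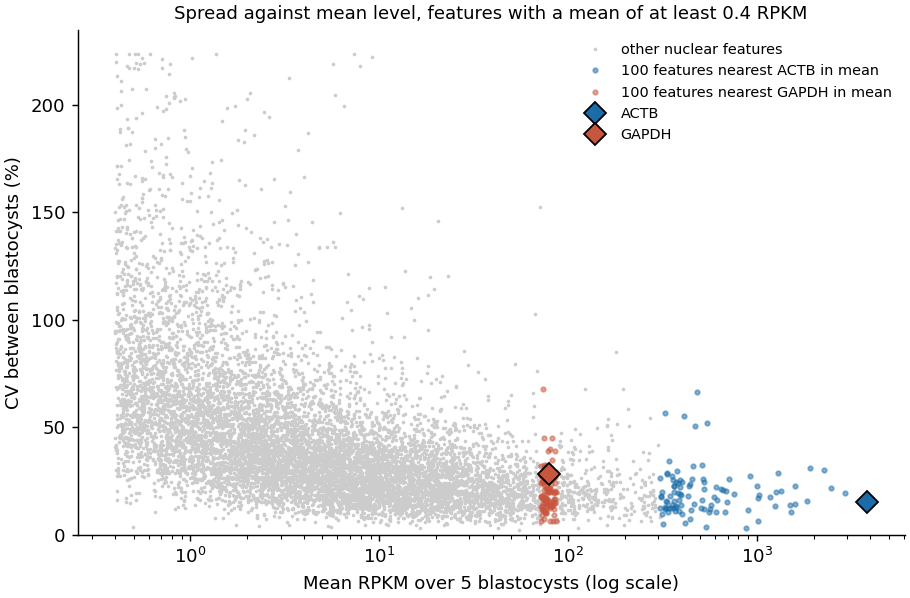
CV between the 5 blastocysts in percent against mean RPKM (log scale) for the 9476 nuclear features that averaged 0.4 RPKM or more, each a point, with the 100 features nearest in mean to *ACTB* (blue) and to *GAPDH* (red) in colour and the genes as diamonds. *ACTB* is the rightmost point at a CV of 15.1%, and *GAPDH*, at 28.1%, lies in the upper part of the features around it.

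In each embryo the level can also be read against that of the features of like mean. In blastocyst 2, *GAPDH* was at 69.6% of its own mean, while the median of its 100 nearest features was at 107.7% of theirs. In blastocyst 5 it was at 132.5%, with the nearest features at 92.8%. *GAPDH* thus lay outside the quartiles of its nearest features in 4 embryos, low in blastocysts 1 and 2 and high in blastocysts 4 and 5, and within them in blastocyst 3. *ACTB* lay outside the quartiles of its nearest features in 3 embryos, below them in blastocyst 1 and above them in blastocysts 2 and 4, and within them in blastocysts 3 and 5. It was at 121.2% of its mean in blastocyst 2, where the median of the nearest features was also high, at 107.4%, but at 105.4% in blastocyst 4, where they were low, at 94.0%. When the embryos were scaled to an equal median of the nuclear features averaging 1 RPKM or more, the fold between the highest and the lowest embryo rose to 1.53 for *ACTB* and 2.03 for *GAPDH*, so the spread of both genes was larger after this scaling. The mitochondrial rows, which enter the totals of RPKM, held 27.5%, 33.3%, 32.2%, 25.6% and 28.9% of the summed RPKM in blastocysts 1 to 5, and with the embryos scaled to an equal sum over nuclear features the CV was 13.7% for *ACTB* and 30.5% for *GAPDH*. Blastocysts 4 and 5, which had the most *GAPDH*, also had the most reads, and blastocysts 1 and 2 the fewest, and the part of depth in this order was not tested.

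**Figure D3:**
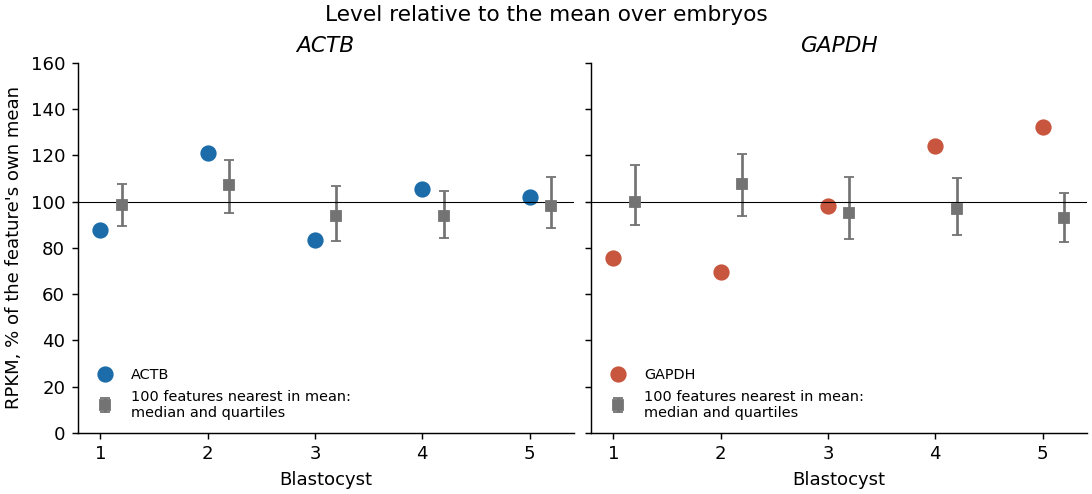
Level of *ACTB* (left) and *GAPDH* (right) in each blastocyst as a percent of the gene's own mean over the 5 embryos (coloured points), beside the 100 features nearest in mean RPKM, each also taken as a percent of its own mean (squares are their median, bars their quartiles). *GAPDH* goes from 69.6% to 132.5%, and *ACTB* from 83.4% to 121.2%.

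The ratio of the genes was taken within each embryo, where any scaling between embryos cancels. *ACTB* was 56.3 times as high as *GAPDH* in blastocyst 1, 84.5 times in blastocyst 2, 41.3 times in blastocyst 3, 41.2 times in blastocyst 4 and 37.5 times in blastocyst 5. Blastocysts 3, 4 and 5 lay close together, and blastocyst 2 was the highest. Its gap to the next embryo was 0.599 of the whole range, under Dixon's critical value of 0.71 for 5 samples, a check that with so few embryos does not show that blastocyst 2 is like the others. The mean log2 ratio was 5.63 ± 0.48 (SD, n = 5), a geometric mean ratio of 49.7. *ACTB* was higher in 5 of 5 embryos, with a two-sided exact permutation p of 0.0625 by sign flips within embryos, the smallest p that 5 embryos allow. The ratio was 2.26-fold higher in blastocyst 2 than in blastocyst 5. The level of any other gene in blastocyst 2 relative to blastocyst 5 differs by that factor, depending on which of these genes it is divided by.

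**Figure D4:**
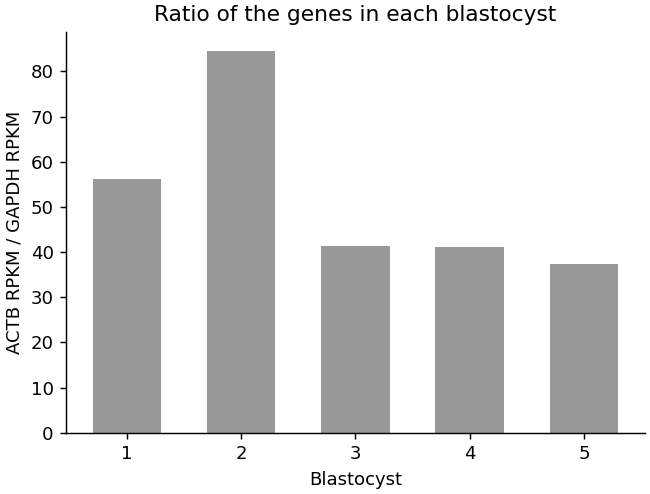
RPKM of *ACTB* divided by RPKM of *GAPDH* in each blastocyst, as bars from 0. The ratio is 84.5 in blastocyst 2 and between 37.5 and 56.3 in the other embryos.

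Of the 10 pairs of embryos, *ACTB* and *GAPDH* differed in the same direction in 4 and in opposite directions in 6. This tally rested on blastocyst 2, since every pair with it went in opposite directions. Among the pairs without it, only blastocysts 1 and 3 and blastocysts 4 and 5 did so, and most went in the same direction. Blastocyst 4 exceeded blastocyst 3 almost equally in both, 1.26-fold for *ACTB* and 1.27-fold for *GAPDH*. In blastocyst 5 *GAPDH* was 1.90 times as high as in blastocyst 2, and *ACTB* 0.844 times as high. Across the pairs, the folds of the genes differed by a factor of 1.00 to 2.26, with a median of 1.43.

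For comparison, every feature near *ACTB* was paired with every feature near *GAPDH*, and the SD of the log2 ratio over the embryos was taken for the 10000 pairs. The median SD was 0.38, with quartiles of 0.28 and 0.51, and 71.0% of the pairs had a lower SD than the reference genes. This place rested on blastocyst 2. Without it the SD of the log2 ratio of *ACTB* to *GAPDH* fell from 0.48 to 0.26, and 25.4% of the pairs had a lower one.

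Some features followed each gene much more closely than the other reference gene did. Among 2901 nuclear features that averaged 10 RPKM or more and were above 0 in every embryo, 2001 (69.0%) had a smaller SD of the log2 ratio to *ACTB* than *GAPDH* had, and 1139 (39.3%) had a smaller SD of the log2 ratio to *GAPDH* than *ACTB* had. These counts also rested on blastocyst 2, and without it they were 812 and 319 of 2887 features. The counts were chosen after seeing the data, with all embryos as well as with 1 left out. The closest to *ACTB* were ENSBTAG00000009780 and ENSBTAG00000025426, with an SD of 0.060 and 0.061 and means of 41.2 and 56.6 RPKM. The closest to *GAPDH* was ENSBTAG00000007974, with an SD of 0.035 and 11.8, 10.5, 14.3, 18.4 and 19.7 RPKM in blastocysts 1 to 5, where *GAPDH* was between 5.08 and 5.40 times as high. ENSBTAG00000017125 followed with an SD of 0.102. The values of ENSBTAG00000007974 were met by an exon model of 2039 bases with 623, 601, 871, 1128 and 1231 reads. Counting error alone would give the log2 ratio of such reads an SD of 0.059, above the observed 0.035. For ENSBTAG00000009780 and ENSBTAG00000017125 it would give 0.021 and 0.052, below the observed 0.060 and 0.102. These features were taken as the closest of 2901 over only 5 embryos, and whether any of them shares reads with the gene it follows was not tested.

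The genes were then used as scalers, as a reference gene would be. Each embryo was scaled so that *ACTB*, *GAPDH* or the geometric mean of both was equal in all embryos, and the CV of the 7765 other nuclear features averaging 1 RPKM or more was taken again. As deposited, the median CV of these features was 30.9%. It was 34.9% after scaling to *ACTB*, 42.9% after scaling to *GAPDH* and 35.8% after scaling to both, against 30.8% after scaling to the median of the features. The CV of a feature was higher than as deposited in 71.7% of features after scaling to *ACTB*, in 80.3% after scaling to *GAPDH* and in 76.3% after scaling to both. The factors for *GAPDH* ran from 1.39 in blastocyst 2 to 0.731 in blastocyst 5, and those for *ACTB* from 1.19 in blastocyst 3 to 0.818 in blastocyst 2.

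A rise of the median CV was not particular to these genes. When each of the 100 features nearest to *ACTB* served as the scaler, the median CV of the other features was between 31.1% and 71.0%, and 0 of the 100 brought it below the value as deposited. The median over these scalers was 35.9%, and 41 of them gave a lower value than *ACTB* did. For the 100 features nearest to *GAPDH* the median was 36.1%, and 87 of them gave a lower value than *GAPDH* did. The embryos were already scaled to their mapped reads in RPKM, so these numbers say how a further scaling to 1 feature changed the spread, and not how the genes would perform on values without such scaling.

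**Figure D5:**
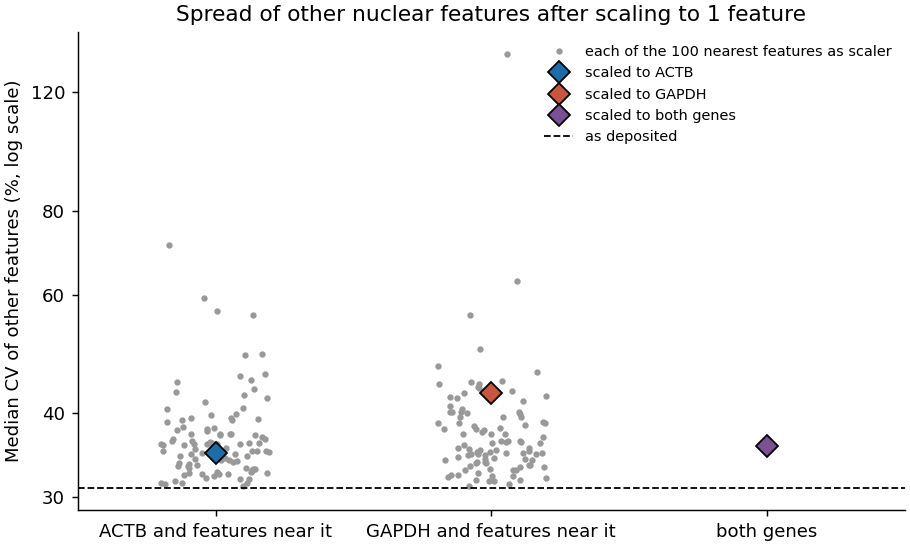
Median CV in percent (log scale) of the other nuclear features averaging 1 RPKM or more after each embryo was scaled to *ACTB*, *GAPDH* or both (diamonds) or to each of the 100 features nearest to either gene in mean RPKM (grey points), with the value as deposited as a dashed line at 30.9%. All points lie above the line, and *GAPDH*, at 42.9%, lies above most of the features near it, while *ACTB*, at 34.9%, lies among its own.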

How the data were processed

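RNA-seq of 5 single blastocysts was re-analysed from 1 table. Per the study's methods, the authors trimmed 9 bases from the 5′ end of 40 bp single reads and mapped the rest to the Ensembl annotation of UMD3.1 with CLC Genomics Workbench 4.7, allowing 2 mismatches. The authors deposited RPKM values with 3 decimals for 24616 features, each embryo separately. The values were used without further scaling except where a scaling between embryos is stated. No count test was run, and no comparison between groups was possible. All columns belong to the 5 embryos. Gene lists for glycolysis, actin-binding proteins, other reference genes and cell type markers were not used. The gene table at hand, RefSeq for ARS-UCD2.0, held an Ensembl ID in 0 of its 37063 rows, so it could not name the features.

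The genes and lists were chosen with earlier results of these data known. Named features are both genes, their neighbours in rank of mean RPKM, and the 2 features averaging 10 RPKM or more that follow each gene most closely by the SD of the log2 ratio. Similar features are the 100 nearest in log2 mean RPKM.

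Reads, lengths and totals were solved jointly from the RPKM values of 5073 features with at least 2 RPKM in every embryo, of which 4340 (85.6%) were met by whole reads within the rounding of the table. A first solution gave even lengths for 97.8% of features, so its lengths were halved and its totals doubled. Lengths up to those printed would be met by accident in 0.00108 cases for *ACTB* and 4.91e-06 for *GAPDH*. Scripts were tested on simulated data and run with scipy 1.17.1, pandas 2.3.3 and numpy 2.4.6 (Python 3.11.15). Alternatives covered the scaling between embryos, the number of similar features, the measure of spread, the pseudocount, the filter on low values and the omission of each embryo.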

Additional observations from a re-analysis of the deposited data

How the results depend on the processing

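Of 129 values recomputed for 16 results, 119 stayed within the spread between embryos or within 1.5 times of the main value, or kept their sign. The sign was judged only for the mean log2 ratio, and 0 of its values reversed. Since *ACTB* was above *GAPDH* in every embryo, none could reverse, so this tells nothing about the other results. Under quantile normalization the CV of *ACTB* and its place among similar features were 0, because this normalization gives the highest feature of every embryo the same value. With the mitochondrial rows included, *ACTB* ranked 10. Without a lower limit on the mean RPKM, the median CV after scaling was 65.6% for *ACTB*, 70.2% for *GAPDH* and 66.0% for both, beside 62.8% as deposited, because low features were then included.

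With each embryo left out in turn, the SD of the log2 ratio was between 0.26 and 0.54 and the share of pairs with a lower SD between 25.4% and 77.1%, the lowest values of both being those without blastocyst 2. The number of features closer to *ACTB* than *GAPDH* was lay between 812 and 2275. That of features closer to *GAPDH* than *ACTB* was lay between 319 and 1524. Both were again lowest without blastocyst 2. These counts were chosen after seeing the data, with all embryos as well as with 1 left out. The number of similar features with a lower CV was between 26 and 50 of 100 for *ACTB* and between 71 and 87 for *GAPDH*, and the rank of *GAPDH* was between 421 and 524. The median CV after scaling was between 32.0% and 36.8% for *ACTB* and between 38.8% and 43.7% for *GAPDH*, against 28.7% to 31.9% as deposited. No paired analysis was possible between groups because the embryos form 1 group; the ratio of the genes was taken within embryos throughout.

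With 5 embryos, a CV and a ratio are known only roughly. Counting error of the reads was below the CV of both genes, but it does not cover noise from amplification, and the part of depth in the order of *GAPDH* over the embryos was not tested.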
